A study of Mus musculus with 12 samples.

Results

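Broad H3K27ac domains are long, continuous stretches of chromatin that carry acetylation of lysine 27 on histone H3, and they were taken here as the autosomal H3K27ac regions that span 50 kb or more. Of the 31617 H3K27ac regions called in mouse mesenchymal stem cells (MSCs), 1118 met this limit. They made up 3.54% of the regions but 28.7% of the length under H3K27ac regions. The measurement was CUT&RUN, a method in which a nuclease tethered by an antibody cuts out the DNA around a histone mark for sequencing. MSCs, which give rise to osteoblasts, adipocytes and chondrocytes, came from young mice of 3 to 5 months or old mice of 18 to 22 months, and all of them were grown in culture under 2% O2. Each age had 3 libraries for H3K27ac and 3 for H3K27me3, the trimethylation of the same residue, and the cells of a sample were split between the tubes for the antibodies. No strain, sex, genotype or treatment was given in the labels. The labels also did not say whether the 3 libraries of a group came from separate animals, so the p-values below measure the spread between these samples, which may be technical.

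H3K27ac is deposited by the acetyltransferases CBP and p300 and is found at active promoters and enhancers. Most acetylated regions are short, but where many enhancers lie next to each other, as around genes that define a cell type, the mark can run on for many kilobases. In stromal cells such stretches are known around genes of the extracellular matrix, the cytoskeleton and lineage-defining transcription factors.

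The sequences below are those that the results turn on, and all were taken from RefSeq tables of GRCm38.p6. The first set shows mature microRNAs encoded inside domains of high H3K27ac density, since the densest of all domains held no protein-coding start site and is marked by its microRNA genes. Of 919 autosomal microRNA hairpins, 109 lay inside a domain, and 15 of these lay in 10 of the 100 densest domains. Capitals mark the seed, bases 2 to 8 from the 5′ end. The let-7 microRNAs are regulators of cell growth and differentiation, the miR-29 family is known for targeting collagen transcripts, and miR-196a is encoded within the Hox clusters. Among those shown, let-7c-5p and let-7b-5p shared the seed GAGGUAG, and miR-29a-3p and miR-29b-3p shared the seed AGCACCA.
let-7c-5p: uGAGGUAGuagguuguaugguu
let-7b-5p: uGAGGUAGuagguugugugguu
miR-27b-3p: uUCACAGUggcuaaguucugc
miR-24-3p: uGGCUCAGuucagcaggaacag
miR-29a-3p: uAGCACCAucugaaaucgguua
miR-29b-3p: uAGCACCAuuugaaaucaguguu
miR-196a-5p: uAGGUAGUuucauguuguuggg
miR-125b-5p: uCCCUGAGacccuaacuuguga

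The second set shows promoters inside 4 domains that recur below, from 250 bases before the start site to 50 bases after it. Capitals mark matches, on either strand, to short motifs: TATAAA (the TATA box), GGGCGG (known for SP and KLF factors), CCAAT (for NF-Y), TGANTCA (for AP-1), CATTCC (for TEAD factors), TGTGGT (for RUNX factors) and the CArG box (for SRF). TATAAA and CCAAT can each lie within a CArG box, and no other motif here contains another. A match is a description of the letters and not a bound site. The Actn4 promoter at chr7:28962283-28962582 (minus strand) held 35 CpG dinucleotides and 4 matches to GGGCGG. The Prrx1 promoter at chr1:163313601-163313900 (minus strand) held 6 CpG and the Sparc promoter at chr11:55420031-55420330 (minus strand) held 4. The Mical2 promoter at chr7:112225586-112225885 (plus strand) held 24 CpG and 3 matches to CCAAT.
Actn4: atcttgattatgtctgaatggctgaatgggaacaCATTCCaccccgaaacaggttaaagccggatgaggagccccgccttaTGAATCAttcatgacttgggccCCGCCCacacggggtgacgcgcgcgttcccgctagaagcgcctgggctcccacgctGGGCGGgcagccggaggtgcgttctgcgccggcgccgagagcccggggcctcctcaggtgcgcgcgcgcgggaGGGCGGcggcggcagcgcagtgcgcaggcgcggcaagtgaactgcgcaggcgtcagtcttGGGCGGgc
Prrx1: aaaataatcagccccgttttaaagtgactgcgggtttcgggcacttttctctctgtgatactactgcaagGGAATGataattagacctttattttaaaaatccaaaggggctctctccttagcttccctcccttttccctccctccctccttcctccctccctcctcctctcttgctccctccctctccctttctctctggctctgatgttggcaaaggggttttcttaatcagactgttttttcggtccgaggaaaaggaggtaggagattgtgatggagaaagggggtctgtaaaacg
Sparc: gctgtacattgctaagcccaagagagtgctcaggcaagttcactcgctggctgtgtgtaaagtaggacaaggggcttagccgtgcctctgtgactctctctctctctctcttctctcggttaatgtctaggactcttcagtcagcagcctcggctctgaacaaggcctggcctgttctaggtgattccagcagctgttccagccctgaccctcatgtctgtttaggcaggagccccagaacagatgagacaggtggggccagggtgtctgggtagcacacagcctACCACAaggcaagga
Mical2: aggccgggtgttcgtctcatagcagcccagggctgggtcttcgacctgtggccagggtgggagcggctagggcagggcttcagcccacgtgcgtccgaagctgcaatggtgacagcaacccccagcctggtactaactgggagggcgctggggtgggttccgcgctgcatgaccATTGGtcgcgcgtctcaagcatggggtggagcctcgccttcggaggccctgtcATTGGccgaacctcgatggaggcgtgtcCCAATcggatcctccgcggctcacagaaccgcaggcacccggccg

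Over all 1819 RefSeq promoters inside domains, 66.2% held GGGCGG, against 48.3% of 19174 promoters in all, and the median number of CpG was 23 against 14. This was shared with the promoters inside shorter H3K27ac regions, of which 65.0% held GGGCGG with a median of 21 CpG. TATAAA was found in 6.71% of domain promoters, 6.44% of promoters in shorter regions and 19.3% of promoters in no H3K27ac region. TGANTCA was found in 4.12%, 5.02% and 9.74% in the same order. CCAAT differed little between the sets, at 35.0%, 38.4% and 37.1%. CATTCC was found in 11.8%, 11.9% and 15.1%, TGTGGT in 12.3%, 12.1% and 17.7%, and the CArG box in 1.21%, 1.25% and 1.59%.

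The domains covered 93.3 Mb, or 3.79% of the autosomes. Their median length was 70.5 kb, with an interquartile range of 58.0 to 94.9 kb, whereas the median of all H3K27ac regions was 4.0 kb. There were 248 domains of 100 kb or more and 24 of 200 kb or more. The table gives each region a state, and all 1118 domains were listed as present in both old and young cells. At the limit, 21 domains measured 50 kb exactly, and among the densest of these were the domains at Lrig3, with a young mean density of 1.82, within Disp1, with 1.59, and at Slc44a2, with 1.50. Another 18 regions measured 49.5 kb and were left out, among them those at Med25, Fuz and Ap2a1, with 1.35, at Wac, with 1.34, and near Srr, with 1.32. Density here and below is the number of reads per kb of region for every 1000000 reads of the library (RPM per kb), computed from the deposited signal and the region length. On the X chromosome, 1 region of 50.5 kb was also left out.

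**Figure D1:**
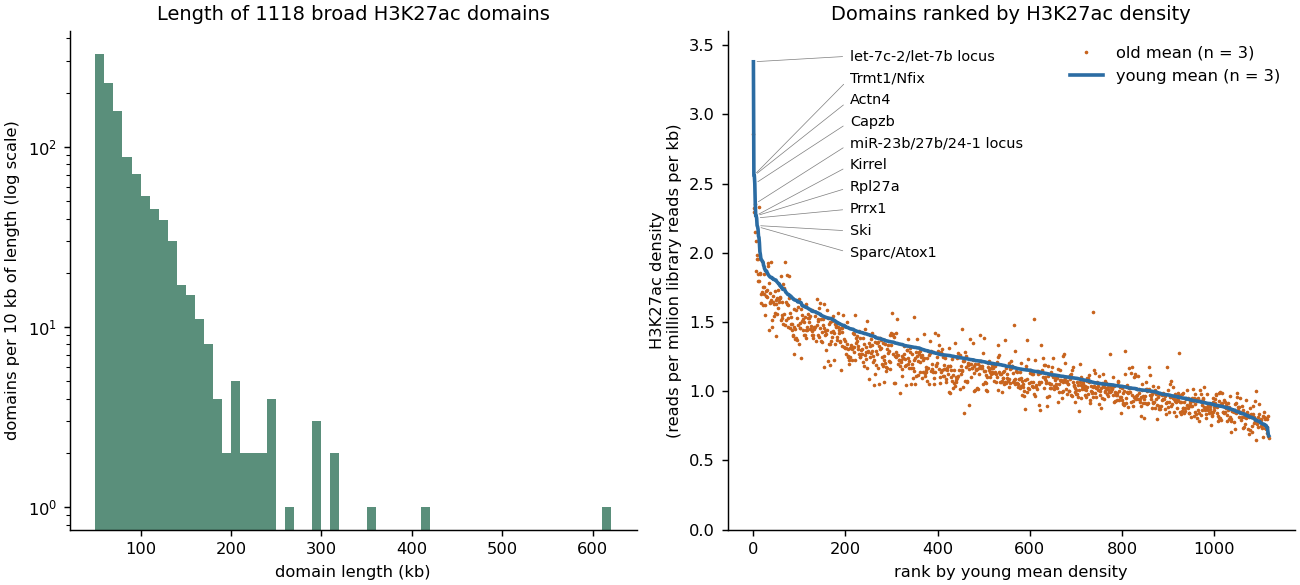
Left, number of broad domains by length in bins of 10 kb (log axis); the longest measured 615 kb. Right, H3K27ac density of the 1118 domains ordered by their young mean (line), with the old mean of each domain (points) and the names of the 10 densest domains; the young means ran from 3.38 down to 0.679 RPM per kb.

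The start sites of 1705 protein-coding genes lay inside the domains, which is 8.19% of 20807 autosomal genes. For comparison, 51.7% of these genes had their start site in an H3K27ac region of any length. A single start site was found in 457 domains, 2 to 3 start sites in 311 and 4 or more in 100. The other 250 domains held none, and 240 of these overlapped the body of a protein-coding gene while 10 did not. The domains richest in genes were a 66.0 kb domain on chromosome 9 with 11 start sites, including Hyal1, Hyal2 and Hyal3 for hyaluronidases and the tumour suppressor Rassf1, a 119.5 kb domain on chromosome 17 with 11, including Flot1 and Tubb5, and a 121 kb domain on chromosome 8 with 10, including Thap11 and Psmb10. Their young mean densities were 1.32 ± 0.201, 1.19 ± 0.0957 and 1.27 ± 0.206 (SD, n = 3), near the median of all domains.

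Per 100 kb, the domains held 1.83 protein-coding start sites, fewer than regions of 20 to 50 kb, with 3.18, or regions under 20 kb, with 4.40, and more than the autosomes as a whole, with 0.845. The base composition of the domains was close to that of shorter regions. The median GC content was 44.5% in domains, 44.6% in regions of 20 to 50 kb and 44.7% in shorter ones, against 41.9% of the autosomes. CpG dinucleotides numbered 11.8, 12.5 and 11.0 per kb in the same order, and soft-masked repeats took 23.6%, 22.6% and 18.7% of the sequence, against 32.6% of the autosomes. Matches to TGANTCA had a median of 0.312, 0.308 and 0.400 per kb, against 0.319 on the autosomes, so that regions under 20 kb had fewer repeats and more of these matches than the domains. The domains were unevenly spread, covering 6.55% of chromosome 11 and 5.53% of chromosome 9 but 2.12% of chromosome 13. The median gap between neighbouring domains on a chromosome was 657 kb, and 70 of 1099 gaps were under 10 kb, so some neighbours may be parts of 1 longer stretch that the caller divided.

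The young mean density of the domains had a median of 1.18 and an interquartile range of 1.01 to 1.38, and the densest exceeded the sparsest 4.98-fold. Within a domain the 3 young libraries varied by a median of 11.5% (coefficient of variation). The shallowest value in any library and domain rested on 90 reads and the median of the lowest read number per domain was 210, so counting error adds to this spread. Outside all H3K27ac regions, the density was 0.253 to 0.287 across the 6 libraries, so that the median domain stood 3.59 to 5.05-fold above the rest of the genome. Regions of 20 to 50 kb had a median of 1.07 and regions under 20 kb one of 1.17, so density per kb did not separate the domains from shorter regions. Across the 1118 domains, young density had a Spearman rho of 0.244 with length, 0.287 with GC content, -0.257 with the share of repeats and 0.051 with the number of start sites. These are descriptions over domains that share libraries and depth. Between young libraries, rho of the densities was 0.900 to 0.908, and between the means of the ages it was 0.923.

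The densest domain spanned 72.5 kb at chr15:85644001-85716500 and held the hairpins of let-7c-2 and let-7b, with the start of Ppara, the fatty acid-sensing nuclear receptor, lying 18483 bases away. Its density was 3.94, 2.93 and 3.27 in young libraries 1 to 3 and 2.71, 2.52 and 3.34 in old libraries 1 to 3. The groups overlapped, and the young mean of 3.38 ± 0.514 (SD, n = 3) was above that of every other domain. A second microRNA locus, with the hairpins of miR-23b, miR-27b, miR-3074-1 and miR-24-1, stood in rank 5 at chr13:63226501-63351500, with 79.7% of its length inside the gene 2010111I01Rik. It measured 2.63, 1.98 and 2.45 in the young libraries and 1.94, 1.98 and 2.52 in the old. Other microRNA genes lay in domains further down the ranking. The 174.5 kb domain that encodes miR-29a and miR-29b-1 was in rank 68, with young densities of 1.85, 1.62 and 1.74 and old ones of 1.61, 1.63 and 1.99. The domain of miR-125b-1 was in rank 83, with a young mean of 1.68 ± 0.253 and an old mean of 1.53 ± 0.195. The domain of miR-21a, shared with Vmp1, Ptrh2 and Cltc, was in rank 112, with 1.61 ± 0.223 and 1.41 ± 0.0753.

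Genes of actin filaments, stromal transcription factors and matrix were among the other 8 of the 10 densest domains. The domain in rank 2 at chr8:84675501-84804000 held 5 start sites, those of Trmt1, Nacc1, Lyl1, G430095P16Rik and Nfix, of which Nfix, a nuclear factor I transcription factor, overlapped 78.2% of it. It measured 2.88, 2.21 and 2.59 in the young libraries and 2.15, 2.20 and 2.62 in the old. Actn4, which encodes an α-actinin that cross-links actin filaments, lay in a domain with young densities of 2.96, 2.14 and 2.58 and old ones of 2.05, 2.17 and 2.67. Capzb, for a subunit of the protein that caps actin filament ends, followed with 2.68, 2.23 and 2.58 against 1.97, 2.38 and 2.72. In these 3 domains the ages overlapped, and their young means of 2.56, 2.56 and 2.50 lay within 1 SD of each other. In all 10 of the densest domains young library 2 was the lowest of its group. This library also had 33.7% of its reads in H3K27ac regions whereas the highest young share was 41.4%, and the part of this in the order of the densities was not tested.

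Kirrel, a cell adhesion gene of the immunoglobulin superfamily, had 2.50, 1.90 and 2.40 in the young libraries and 1.94, 2.07 and 2.26 in the old. The domain of Rpl27a, for a ribosomal protein, was taken up to 95.4% by the neighbouring gene St5 and had 2.47, 1.88 and 2.45 against 1.81, 1.64 and 2.16. Prrx1, a homeobox factor of limb mesenchyme and a marker of skeletal stromal cells, had 2.72, 1.78 and 2.26 against 1.83, 1.86 and 2.17. Ski, a repressor of SMAD signalling, had 2.42, 1.91 and 2.26 against 1.82, 1.83 and 2.30. Sparc, for the collagen-binding matrix protein osteonectin, shared its domain with Atox1 and had 2.34, 1.85 and 2.37 against 1.63, 1.75 and 2.02. On this deposited scale the groups overlapped in all 5 domains. After the RLE scaling used for age below, all old values lay below all young ones at Rpl27a (2.17, 2.04 and 2.21 against 1.98, 1.75 and 2.02) and at Sparc (2.06, 2.01 and 2.13 against 1.79, 1.87 and 1.89), and limma called neither. The domains were picked by these same young values, which favours old values below them. Across all domains, young density had a Spearman rho of -0.330 with the log2 fold change, old over young. The deposited young means of the 5 domains, 2.19 to 2.27, were within the SD of each other. The Prrx1 and Sparc promoters printed above were poor in CpG, whereas that of Actn4 was rich, so a dense domain was found over both kinds.

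The 5 longest domains had densities above the median of all domains. Foxp1, a forkhead repressor, lay in a domain of 615 kb, of which it covered 97.1%, with young densities of 1.39, 1.20 and 1.54 and old ones of 1.29, 1.37 and 1.49. Lpp, a focal adhesion protein of the zyxin family, filled 99.3% of a 412 kb domain with 1.44, 1.16 and 1.44 against 1.17, 1.16 and 1.42. Atxn1 (350.5 kb), Pakap with Akap2 (317 kb) and Stk24 with the body of Farp1 (315.5 kb) had young means of 1.40, 1.32 and 1.36. These 5 domains ranked between 260 and 340 of 1118 by density. At the other end, the 3 sparsest domains lay wholly inside the bodies of Acaca, for acetyl-CoA carboxylase, Myo1e, for a class I myosin, and Anapc1, for a subunit of the anaphase-promoting complex, and held no start site. Their young means were 0.679 ± 0.0386, 0.684 ± 0.127 and 0.709 ± 0.0564. With the RLE scaling used for age below, all old values lay above all young ones in the Foxp1, Pakap and Myo1e domains, and limma called none of these. The scaled values were 1.23, 1.30 and 1.39 in young against 1.41, 1.47 and 1.40 in old libraries at Foxp1. At Myo1e they were 0.610, 0.599 and 0.726 against 0.801, 0.912 and 0.817. The sparsest domains were picked by low young values, which favours old values above them. The 250 domains without a start site had a median young density of 1.12, against 1.22 for those with a single start site and 1.23 for those with 4 or more.

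**Figure D2:**
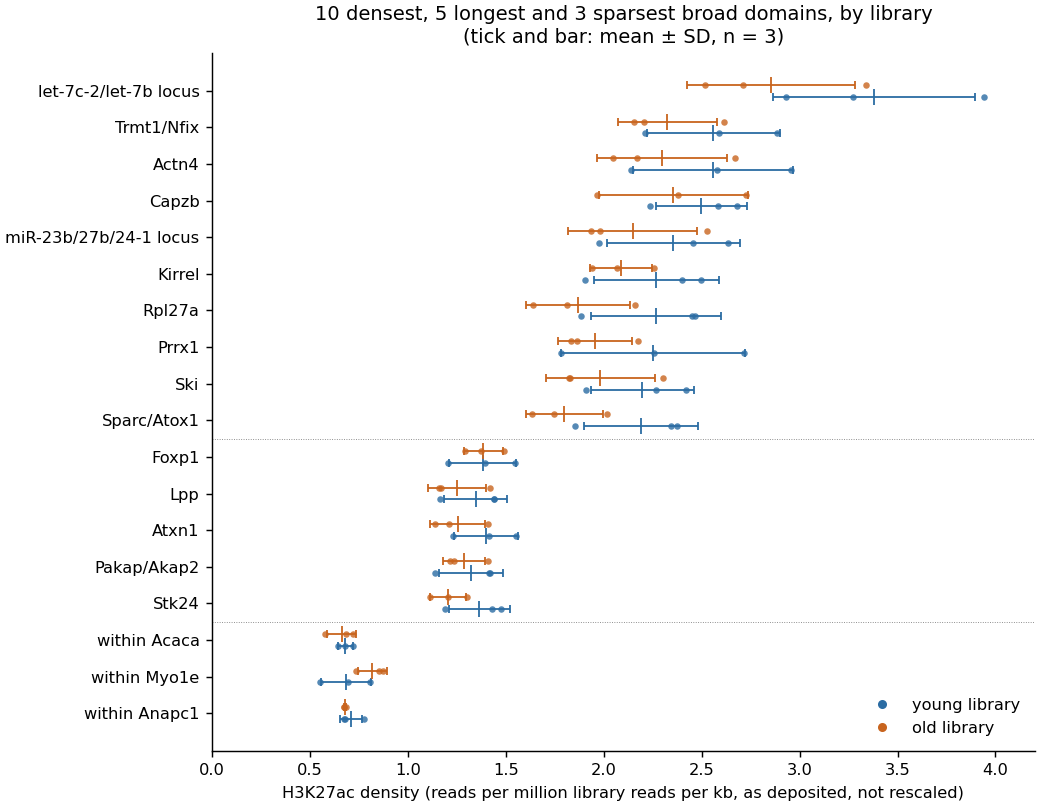
H3K27ac density, in RPM per kb as deposited, of the 10 densest, the 5 longest and the 3 sparsest domains, with 1 point per library and the mean ± SD of the 3 libraries of each age. The let-7c-2/let-7b locus lies to the right of all others, and young and old points overlap in every row on this deposited scale.

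The lists of genes that mark the cells were then read against the domains. Of 12 surface markers of stromal cells, 3 had their start site in a domain, namely Pdgfrb, a receptor for platelet-derived growth factor, Cd44, the hyaluronan receptor, and Itgb1, an integrin subunit. All the other 9, among them Pdgfra, Ly6a and Thy1, lay in shorter H3K27ac regions. The Pdgfrb domain had young densities of 1.89, 1.50 and 1.73 and old ones of 1.53, 1.45 and 1.91, and the Cd44 domain had 1.79, 1.34 and 1.64 against 1.35, 1.45 and 1.55. In contrast, none of the 10 blood, 10 endothelial, 10 epithelial, 10 neural and 10 skeletal muscle markers lay in a domain. Of these 50, Ly75 of the blood list and Mylpf and Tnnt3 of the muscle list lay in a shorter H3K27ac region, and the defining markers Ptprc, Pecam1, Epcam, Sox10 and Myod1 lay in none.

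Matrix genes lay in domains most often of the lists, with 12 of 20 against 8.19% of all genes. All 20 had their start site in an H3K27ac region of some length, whereas 10748 of the 20807 genes did. Of those 10748 genes, 1705 lay in a domain, so the share of 8.19% also counts genes outside H3K27ac regions. Col1a1, for the main collagen chain of bone, had 1.82, 1.66 and 1.79 in the young libraries and 1.55, 1.80 and 2.15 in the old. Col3a1 and Col5a2 lay in neighbouring domains 1 kb apart, with young means of 1.66 ± 0.252 and 1.62 ± 0.346 and old means of 1.46 ± 0.253 and 1.44 ± 0.228. Col5a1, Col6a3, Fbn1, Fn1, Thbs1, Thbs2, Timp3 and Tnc were also inside, the last with the lowest young mean of the list, 0.956. Col1a2, Lox, Bgn, Dcn, Lum, Postn and the other 2 lay in shorter regions. Of 18 genes of the actin cytoskeleton and focal adhesions, 10 lay in a domain. Myh9, for non-muscle myosin, had 2.05, 1.63 and 2.05 against 1.62, 1.82 and 2.11. Cald1, Actn1 and Ccn1 had young means of 1.89 ± 0.272, 1.81 ± 0.0964 and 1.48 ± 0.0604, and Acta2, Tagln, Cnn1, Vcl, Tln1 and Lpp completed the set.

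Of 16 transcription factors of stromal and bone-forming cells, 6 lay in a domain and the other 10 in shorter regions. Next to Nfix and Prrx1, these were Yap1, a co-activator of TEAD factors, with 1.84, 1.37 and 1.77 in the young libraries and 1.34, 1.41 and 1.59 in the old, and Tead1, with a young mean of 1.52 ± 0.239. Runx2 and Sp7, the factors that drive osteoblast formation, lay in domains of lower density, with 1.05 ± 0.218 in rank 774 and 1.24 ± 0.104 in rank 451. The Sp7 domain held 5 start sites and the Runx2 domain 2, so their signal cannot be given to Sp7 or Runx2 alone. Of the TGF-β and BMP list 6 of 19 were inside, and the inhibitors of the pathway were the densest. Beside Ski, these were Smad7, with 2.32, 1.94 and 2.24 against 1.72, 1.86 and 2.29, and Smad6, with 2.32, 1.90 and 2.14 against 1.76, 1.69 and 2.08. The ligand Tgfb3 followed with a young mean of 1.54 ± 0.164, and Bmpr1a and Ltbp2 were lower.

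Fewer members of the remaining lists lay in domains. Of 10 AP-1 genes, 2 did, Fosl1 in a domain with 7 start sites and a young mean of 1.81 ± 0.280, and Maff with 1.36 ± 0.170, while Fos, Jun and Junb lay in shorter regions. Of 13 osteogenic genes, 3 did, and these were Col1a1, Runx2 and Sp7. Of 10 adipogenic genes only Ebf1 did, in a 249.5 kb domain with 1.18 ± 0.133, while Pparg and Cebpa lay in shorter regions. Of 10 chondrogenic genes none did, and Sox9 and Acan were among the 7 in shorter regions. The lists were small and were chosen with results of these data known, so their shares are descriptions.

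**Figure D3:**
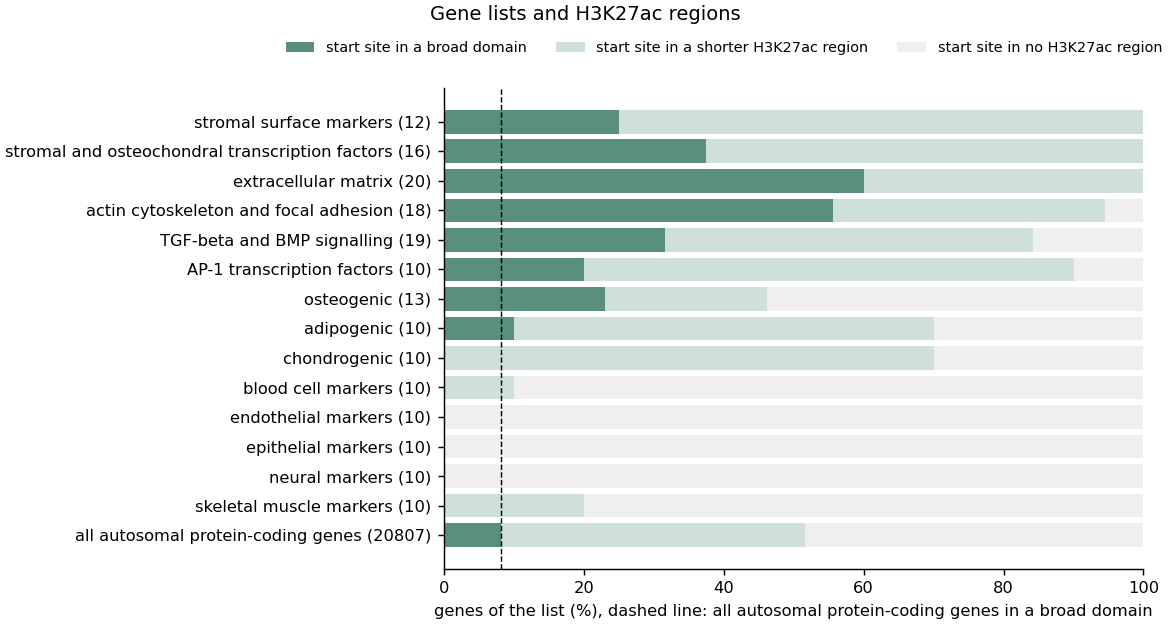
Share of the genes of each list, with the number of annotated genes in brackets, whose start site lay in a broad domain, in a shorter H3K27ac region or in none. Matrix genes (60.0%) and actin genes (55.6%) lay in domains most often, the dashed line marks 8.19% of all autosomal protein-coding genes, and the lists of other cell types have no dark bar.

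To ask how the domains differed with age, the deposited columns were brought to a common scale (RLE, the median of ratios over all regions), and each region was tested with limma. A region was called at a Benjamini-Hochberg adjusted p under 0.05 over all 31617 regions, and fold changes are old over young on the scale of log2(signal + 0.5). Of the 1118 domains 2 (0.179%) were called, both higher in old cells, and 0.0822% of all regions were called. Scaling set the direction: the median log2 fold change of all regions was -0.003 after scaling and -0.12 on the deposited signal, and that of the domains was 0.04 and -0.08. Directions below are relative to the median region. The domains varied little between the ages. Their log2 fold changes ran from -0.45 to 0.73 with an SD of 0.12, against 0.38 for all regions, and 89.5% of them lay within 0.2 of no change. Their median standard error was 0.083, against 0.27 for all regions. The median domain held 361 reads per library, against 18.8 in regions under 20 kb.

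The young and old libraries did not overlap in 204 domains (18.2%), against 14.5% of all regions. In 159 of them (14.2%) all old values lay above all young ones, against 7.09% of all regions, and in 45 (4.03%) all lay below, against 7.42%. On the deposited signal these shares of domains became 0.268% above and 3.31% below, so the excess of higher values depended on the scaling. The shares of all regions on that signal are not given here. At an unadjusted p under 0.05 there were 162 domains (14.5%), against 9.59% of all regions, 126 higher and 36 lower. Regions of 20 to 50 kb were alike, with a median log2 fold change of 0.05, 12.2% above and 4.79% below, whereas regions under 20 kb had -0.02, 6.35% and 7.79%. The shift was thus shared by long regions and was not particular to the limit of 50 kb. Of all reads in H3K27ac regions, the domains held 30.6%, 30.5% and 30.4% in the young libraries and 30.7%, 30.7% and 30.9% in the old, each with a 95% binomial (Wilson) interval no wider than 0.185 percentage points. All old shares lay above the young ones by a difference of means of 0.319 percentage points. The interval of young library 1 (30.56 to 30.68%) nevertheless overlapped those of old library 1 (30.65 to 30.78%) and old library 2 (30.64 to 30.82%). These intervals cover counting error only, and reads are not replicates of an age. Of all reads in the library, however, the domains held 11.7% ± 1.26 in young and 11.0% ± 0.996 in old cells, and here the groups overlapped.

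The domain with the clearest difference lay over Mical2, which encodes a monooxygenase that disassembles actin filaments, at chr7:112223001-112347000. Mical2 covered 97.7% of it, and its promoter is printed above. The scaled density was 0.942, 1.10 and 1.22 in the young libraries and 1.42, 1.69 and 1.59 in the old. All old values exceeded all young ones, and the log2 fold change was 0.53 ± 0.076 (SE), with an adjusted p of 0.0014 by limma. The domain moved from rank 609 in young to rank 103 in old cells. On the deposited signal the log2 fold change was 0.41 with an adjusted p of 0.19 by limma, and without trend and robust moderation the adjusted p by limma was 0.50, so the call was lost in both.

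The other called domain measured 122.5 kb at chr5:136276001-136398500, held no start site and lay wholly inside Cux1, for a homeodomain transcription factor of the CUT family. Its scaled density was 0.722, 0.781 and 0.744 in the young libraries and 0.983, 1.18 and 0.939 in the old. The log2 fold change was 0.46 ± 0.078 (SE), with an adjusted p of 0.0084 by limma. In 4 settings this call was lost: on the deposited signal (0.34, adjusted p = 0.40), without trend and robust moderation (adjusted p = 0.53), without young replicate 1 (0.43, adjusted p = 0.10) and without old replicate 2 (0.36, adjusted p = 0.077), all by limma. A second domain, 4 kb further on and named after its values were seen, held the Cux1 start site and measured 0.972, 1.33 and 1.24 in young against 1.40, 1.70 and 1.40 in old libraries. There too all old values lay above all young ones. This Cux1 domain was not called by limma but was called by edgeR on the recovered reads (log2 fold change 0.34, adjusted p = 0.011).

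The other domains with the largest positive differences and groups apart were at Pmepa1, Spsb1 and Igfbp7. Limma on the scaled signal called none of them, whereas edgeR on the recovered reads called all 3, with adjusted p of 0.00041, 0.0010 and 0.0084. Pmepa1, an inhibitor of TGF-β signalling that the pathway itself induces, had scaled densities of 0.662, 1.02 and 1.35 in the young and 1.49, 1.96 and 1.42 in the old libraries, with a log2 fold change of 0.73 ± 0.30 (SE) and an adjusted p of 0.55 by limma. The spread among the young libraries was wide, since young library 3 was close to the lowest old one. Without young replicate 1 the log2 fold change was 0.45 (adjusted p = 0.52 by limma), and on the deposited signal with all libraries it was 0.61, which limma called (adjusted p = 0.036). Spsb1, an adaptor of ubiquitin ligases, had 0.675, 1.06 and 1.01 against 1.17, 1.58 and 1.22, with 0.54 ± 0.20 and an adjusted p of 0.45 by limma, and with 0.34 without young replicate 1. Igfbp7, a secreted insulin-like growth factor-binding protein, had 0.926, 1.13 and 1.27 against 1.38, 1.88 and 1.33, with 0.46 ± 0.13 and an adjusted p of 0.26 by limma, and with 0.30 without old replicate 2. In all 3, as in both called domains, old library 2, which held the fewest reads (2750953), was the highest.

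At the low end, the largest differences with groups apart were not called by limma with all libraries. The domain inside Rora, for a retinoic acid receptor-related orphan receptor, had 1.34, 1.27 and 1.19 in the young and 1.18, 0.795 and 1.06 in the old libraries (log2 fold change -0.34 ± 0.10, adjusted p = 0.23 by limma). Without old replicate 1 it was called (-0.46, adjusted p = 0.041 by limma), and without old replicate 2 it was smaller (-0.18, adjusted p = 0.59 by limma). The domain of Nudcd3 and A730071L15Rik had 1.11, 1.24 and 1.15 against 0.962, 0.816 and 1.00 (-0.34 ± 0.097, adjusted p = 0.18 by limma). The domain inside Rabgap1l had 1.10, 1.14 and 1.05 against 0.903, 0.798 and 0.979 (-0.30 ± 0.093, adjusted p = 0.23 by limma). In each of these 3 domains old library 2 was the lowest.

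The remaining 2 of these domains were at Il1r1 and Lpar1. Il1r1, the receptor for interleukin-1, had 1.59, 1.64 and 1.44 in the young libraries against 1.34, 1.11 and 1.37 in the old (-0.29 ± 0.076, adjusted p = 0.14 by limma). Lpar1, a receptor for lysophosphatidic acid, had 1.37, 1.26 and 1.27 against 1.15, 0.915 and 1.18 (-0.28 ± 0.076, adjusted p = 0.16 by limma). The groups were apart in both, and old library 2 was again the lowest. Without old replicate 2 the log2 fold change of Lpar1 was -0.17. The lowest log2 fold change of all, -0.45, belonged to Ism1, for a secreted inhibitor of angiogenesis, whose groups overlapped.

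**Figure D4:**
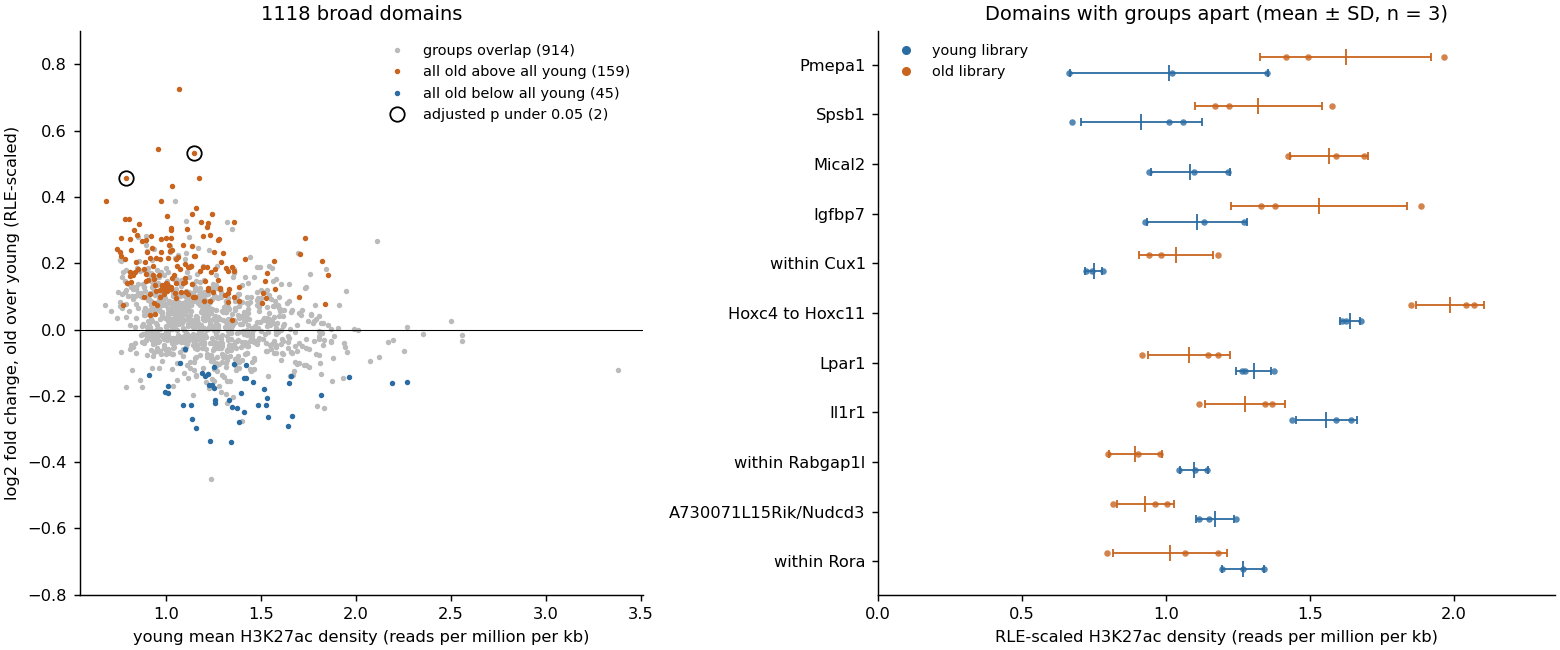
Left, log2 fold change of H3K27ac (old over young, RLE-scaled) against young mean density for the 1118 domains, coloured by whether the 3 old values lay above (159), below (45) or among the young ones, with the 2 called domains ringed. Right, scaled density of each library, with mean ± SD (n = 3), for 11 named domains whose groups were apart.

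None of the 40 domains that held a gene of the lists was called by limma, and the scaled groups were apart in 4 of them (10.0%), against 18.2% of all domains and 14.5% of all regions. The Ltbp2, Tln1 and Cnn1 domains had all old values above the young ones, and the Sparc domain had all below. These domains held 3, 6, 5 and 2 start sites in that order, so their differences cannot be given to a single gene. Log2 fold changes ran from -0.16 to 0.17 for the 12 matrix domains, with a median of 0.07, and from -0.02 to 0.15 for the 10 actin and adhesion domains, with a median of 0.05. For the 6 stromal transcription factor domains they ran from -0.07 to 0.11, for the 6 TGF-β and BMP domains from -0.08 to 0.29, and for the 3 surface marker domains from -0.01 to 0.05. The median over all domains was 0.04. On the deposited signal the medians of both the domains and all regions were negative, as given above.

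H3K27me3, the mark laid down by Polycomb repressive complex 2, was found over few of the domains. Of the 1118 domains 94 (8.41%) overlapped an H3K27me3 region by 1 bp or more, against 15.7% of all H3K27ac regions, and 0.319% of their length was shared, against 3.23%. H3K27ac regions of 20 to 50 kb were alike, with 8.87% overlapping and 0.768% of their length shared, whereas regions under 20 kb had 16.9% and 6.68%. The low overlap was thus shared by long regions and was not particular to the limit of 50 kb. In 5 domains the shared part was over 10% of the length. The domains overlapped 100 H3K27me3 regions, of which 1 was called between the ages, where 0.488% of all H3K27me3 regions were called. In 19 of them (19.0%) the groups did not overlap, against 19.1% of all H3K27me3 regions.

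The domain over Hoxc4 to Hoxc11, homeobox genes that set position along the body, was the place where both marks met over a known Polycomb target. It spanned 103 kb at chr15:102940501-103043500, held 7 start sites and the miR-196a-2 hairpin, and 38.3% of it lay under H3K27me3. Its scaled H3K27ac density was 1.61, 1.68 and 1.63 in the young and 2.07, 1.85 and 2.04 in the old libraries, with all old values above the young ones. The log2 fold change was 0.28 ± 0.060 (SE), with an adjusted p of 0.053 by limma, just above the threshold. On the deposited signal it was 0.16, and the adjusted p passed under 5 of 15 alternatives, over which it ranged from 0.024 to 0.81. The H3K27me3 region of 97.5 kb that reaches into it from Hoxc13 and Hoxc12 had 1.85, 2.11 and 1.90 in the young and 1.94, 1.60 and 1.40 in the old libraries, so that the groups overlapped, with an adjusted p of 0.24 by limma. A 16.5 kb H3K27me3 region at Hoxc4 had 0.619, 0.618 and 0.701 against 0.427, 0.514 and 0.430, with a log2 fold change of -0.49 ± 0.16 and an adjusted p of 0.15 by limma. All old values of this region lay below the young ones, but it was not called.

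The domain most covered by H3K27me3 held Ugt1a1, Mroh2a, Hjurp and Trpm8, with 92.0% of its 99.5 kb under the mark, and had a young H3K27ac density of 1.84 ± 0.0938. Its young libraries measured 1.90, 1.89 and 1.73, and the 2 H3K27me3 regions over it had young means of 1.71 and 1.91. In the 54.5 kb one, scaled values were 1.97, 1.79 and 1.70 in young and 2.04, 2.07 and 1.99 in old libraries. Limma did not call this difference, and the part of background reads in these values was not tested. The domain of Sfi1 and Eif4enif1 at chr11:3183501-3255000 was dense in H3K27ac, with 2.05, 2.42 and 1.87 in the young and 2.22, 2.47 and 2.30 in the old libraries, and its 17.0 kb H3K27me3 region was the one that was called. Its scaled H3K27me3 density was 4.22, 3.39 and 2.89 in young and 6.17, 6.88 and 7.22 in old libraries, and the log2 fold change was 0.96 ± 0.11 (SE), with an adjusted p of 0.00055 by limma. Both marks were dense there, and repeats took 37.8% of this domain, against a median of 23.6%. Young library 2, with the lowest young share of reads in H3K27ac regions (33.7%), had the highest young H3K27ac density here. In all 10 of the densest domains it had the lowest. The part of repeats or of background reads in these densities, and in the called difference, was not tested. The domains of Rpa1 with Smyd4 and within Pde4b, for a cAMP phosphodiesterase, had 15.4% and 10.1% of their length under H3K27me3, with groups that overlapped in that mark.

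**Figure D5:**
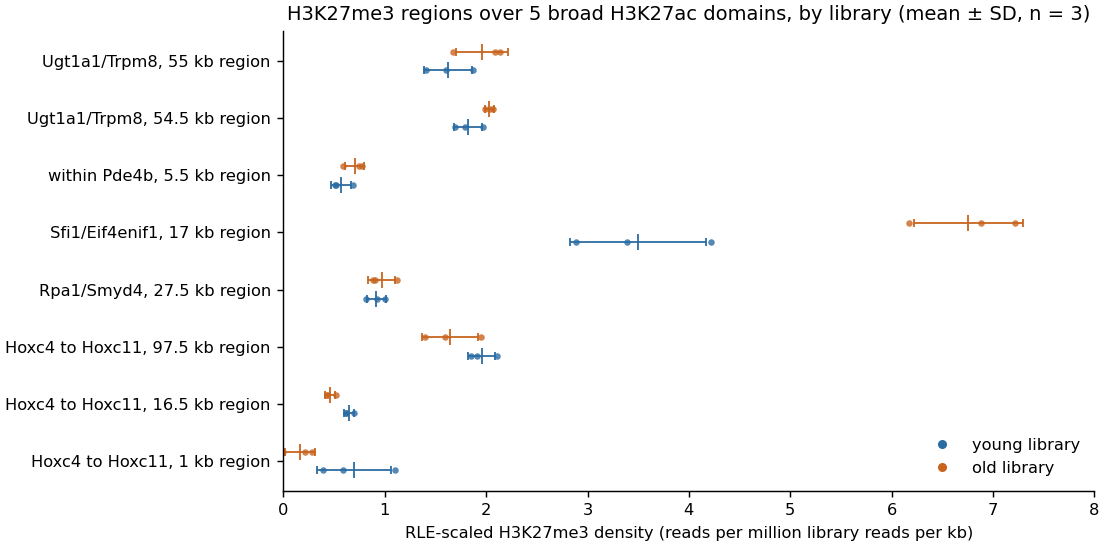
Scaled H3K27me3 density, in RPM per kb, of the 8 H3K27me3 regions over the 5 domains with the largest share of length under the mark, with 1 point per library and the mean ± SD (n = 3) of each age. The Sfi1 region lies apart, with old values of 6.17 to 7.22 and young values of 2.89 to 4.22, and the 3 Hoxc regions have lower means in old than in young libraries. The shortest Hoxc region, of 1 kb, had old values of 0.217, 0.283 and 0, so it rests on very few reads.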

How the data were processed

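H3K27ac and H3K27me3 CUT&RUN libraries of young and old MSCs, 3 per mark and age, were grouped by their labels. The authors deposited a table per mark that lists the signal of every called region in every library. It is named RPKM, but the deposited signal was not divided by region length: 100% of values in each column were whole multiples (tolerance 0.01) of 1 read per 1000000 library reads over a constant 0.5 kb, so whole reads and library totals were recovered. Depth was 2750953 to 5541429 reads for H3K27ac and 3622108 to 9947515 for H3K27me3, with 33.4 to 41.4% and 53.8 to 66.6% of reads in regions, and intervals cover counting error only. The submitters' processing notes name Bowtie2, Picard and mm10 (GRCm38). The region caller and tool versions are not given in the sources used here. No column of per-sample values was left unused (0). The publication supplied with the series concerns oxygen levels and was used for style only.

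Domains were the autosomal H3K27ac regions with end - start + 1 of 50000 bases or more. Genes were GENCODE vM21 basic, with 1 start site per protein-coding gene (its 5′ end), and a domain was named by the start sites inside it, otherwise by the gene body around it or the nearest start site. Older symbols were matched through RefSeq (GRCm38.p6), so that Cyr61 and Ctgf entered as Ccn1 and Ccn2, and 0 list genes stayed without annotation. Density was signal × 0.5 divided by the length in kb. For the age test, the deposited signal was scaled by the median of ratios (RLE) over all regions of a mark, log2(signal + 0.5) was fitted with limma 3.58.1 (R 4.3.3, trend and robust moderation, two-sided, no filter, no block), and Benjamini-Hochberg adjusted p-values were taken over 31617 H3K27ac or 28047 H3K27me3 regions. Fold changes on this scale understate the change of regions with few reads. Marks were tested apart. Density, shares of reads, overlaps and gene lists were described without a test. With 3 samples against 3, an exact permutation test cannot go below p = 0.10, so none was run on single values. Alternatives were edgeR 4.0.16 and DESeq2 1.42.0 on the recovered counts, other scalings, pseudocounts, filters and limits, and each library left out. The procedure was tested on simulated data.

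Named domains were the 10 densest and 3 sparsest, the 5 longest, 3 on each side of the limit, all called, the 5 largest differences in each direction with groups apart, the 5 most covered by H3K27me3, the 3 with most start sites and, per gene list, up to 4 by density. The members and lists were chosen with earlier results of these data known.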

Additional observations from a re-analysis of the deposited data

How the results depend on the processing

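The 2 domains called by limma became 7 with a pseudocount of 1, 7 without the regions in the lowest 25% of mean signal and 15 (14 higher) by edgeR on recovered reads, and these held both of the 2. Over all regions, 45, 37 and 104 were called in these 3 settings, against 26 in the main one. Without trend and robust moderation limma called 0, with 7 at an unadjusted p under 0.05, and it called 0 over all regions too. The number of all regions under that unadjusted p is not given here. Without 1 library, 1 to 7 were called: 1 without young replicate 1, where 2 of all regions were called, and 7 (6 higher) without old replicate 1. Counts over all regions without each of the other libraries are not given here, so those counts describe the domains alone. The count was 2 with TMM scaling, a pseudocount of 0.1, DESeq2 and on the deposited signal, but the 2 on the deposited signal were Pmepa1 (higher) and Ism1 (lower), and shared 0 with the others. Over all regions, 26, 14, 6 and 105 were called in the same order. On the deposited signal this was 2 of 1118 domains against 105 of 31617 regions, so the domains held no excess of calls there. With the replicate number as a block (replicate block), 19 were called, 17 of them higher, including Pmepa1, Spsb1, Igfbp7, the Hoxc domain and both Cux1 domains. Over all regions, 81 were called with the block. Same-numbered libraries deviated together by correlations of 0.066, 0.017 and -0.054, and not every library correlated best with its own number, so the numbers were not taken to pair the samples.

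On the deposited signal the median log2 fold change of the domains was -0.078, and 3.58% of domains had groups apart. Without 1 library that share was 25.5 to 31.6%, as it must grow with fewer samples. The shares of all regions in these settings are not given here, so these values describe the domains alone. The difference of the read share in domains, 0.319 percentage points, became -0.679 over all reads of the library and 0.112 at a limit of 75 kb. At that limit, 754 start sites lay inside in place of 1705. Without domains of 100 kb or more, 4 of the 10 densest domains were left. With 10% of the length as the minimum overlap, 0.447% of domains overlapped H3K27me3 in place of 8.41%. The other 44 values of these summaries moved by less than their spread or, for counts, by at most 1.5 times (3 called domains in place of 2 without young replicate 2, without old replicate 3 and at a limit of 40 kb), and apart from the split of calls on the deposited signal none turned its direction. Of 165 fold changes of the 11 named domains under the alternatives, 0 changed direction, 13 passed the threshold only under the alternative and 6 lost it. The cause of these changes was not tested. The shallowest value of any domain and library rested on 90 reads, which limits the precision of the shortest and sparsest domains.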

Other observations

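In 93 of the 1118 domains at least 1 microRNA hairpin was annotated, and 381 of 919 autosomal hairpins lay in an H3K27ac region of any length. Across the 19 autosomes, the share of a chromosome covered by domains had a Spearman rho of 0.561 with its protein-coding genes per Mb, given as a description over chromosomes of the same libraries. Chromosome 7 had the most genes per Mb (13.9) but a coverage of 3.80%, against 6.55% on chromosome 11 with 13.4 genes per Mb.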
